A study of Mus musculus with 24 samples.

Results

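Expression of 10 genes of the Notch pathway was followed across DMBA-induced mammary tumors of BALB/c mice: the 4 receptors Notch1, Notch2, Notch3 and Notch4, the ligands Jag1, Jag2 and Dll1, and the target genes Hes1, Hey1 and Hey2. They were taken as all probes that the array design names for these genes, 13 of 39429 probes, and 12 of the 13 passed the filter on low signal. All 10 genes were among the 20897 genes with a probe that passed. The ratios were of tumor over reference RNA. Of the 10, only Notch4 passed the test between early-occurring and late-occurring tumors, beside 16.2% of all genes tested. It was called lower in the early ones, as were 9.88% of all genes. The Notch4 call ended under some ways of processing the arrays. It also ended with the array slide held fixed, within scan session 1, and within either diet that had early tumors.

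Notch receptors are single-pass membrane proteins that are activated by ligands on a neighboring cell. Ligand binding lets ADAM proteases and then gamma-secretase cut the receptor, and the freed intracellular domain enters the nucleus, where it joins the DNA-binding protein RBPJ and a Mastermind coactivator and turns on genes such as those of the Hes and Hey families of transcriptional repressors. In the mammary gland the pathway takes part in luminal cell fate, and Notch4 is the receptor whose locus was first known as an integration site of mouse mammary tumor virus. Notch4 is also known for its expression in endothelium, and Notch3 for its expression in mural cells of blood vessels.

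Each of 24 tumors was hybridized on its own Agilent 2-color array against Universal Mouse Reference RNA, a pool from mouse cell lines. All tumors came from mice given DMBA, a chemical carcinogen, and differed by diet: a low-fat diet (LFD), a high-fat diet with more lard than corn oil (HFD), or a switch in young adulthood from the first to the second (LFD-HFD) or back (HFD-LFD). The study calls the HFD high in saturated animal fat. By diet and onset label there were 5 LFD Late, 6 HFD Late, 4 LFD-HFD Late, 3 HFD-LFD Late, 3 HFD Early and 3 HFD-LFD Early arrays, so 6 early tumors stood against 18 late ones, and no early tumor came from LFD or LFD-HFD mice. Arrays are numbered within their group only to name them. No label says that tumors of a group came from separate animals, so the p-values measure the spread between these tumors.

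The 3 HFD Early arrays filled a slide of their own, and the 3 HFD-LFD Early arrays shared a slide with 1 late array, so onset was close to confounded with slide. Scan session 1 held 3 early and 8 late arrays, session 2 held 3 early and 3 late arrays, and session 3 held 7 late arrays. On the 7 late arrays of session 3, a run of rows at one edge of the array had a strongly dimmed cyanine 5 signal, in 18.3% to 28.3% of spots, and these spots were treated as missing. Of the 240 values of the 10 genes, 19 were missing, 12 for dimmed rows and 7 for a flagged local background. The tumor channel of all 10 probes was well above background in at least 1 array of every group, except for Hey2 in HFD-LFD Early. Krt8, a keratin of luminal epithelium, was well above background on all 24 arrays.

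Values are log2 ratios of tumor over reference after loess normalization. The methods of the study name the dyes the other way round from the sample labels, so the direction used here opposes them. It was taken from the labels and checked on the signals: the reference was the same RNA on every array, and over 27292 probes the cyanine 5 signal had a median SD between arrays of 0.61, against 0.27 for cyanine 3, on the log2 scale. Of 93 values of 4 Y chromosome probes, 86 were below the reference, and the highest was 0.15. A ratio compares a gene between arrays only. It does not rank one gene against another.

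Each array value rests on a probe that reads one stretch of the messenger RNA. Notch1 and Notch2 each had a second probe that passed the filter, and the 2 probes of a gene did not give the same sign between early and late tumors. The Notch1 probe that stood for the gene and the second Notch2 probe are shown because the results for these receptors turned on the probe, and they were not placed in exons here. The Notch1 probe was at chr2:26319440-26319499 and the Notch2 probe at chr3:97951233-97951292, both on mm9, as the array design gives them, the first on the minus strand and the second on the plus strand.
Notch1: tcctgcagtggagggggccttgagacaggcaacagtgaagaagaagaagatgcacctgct
Notch2: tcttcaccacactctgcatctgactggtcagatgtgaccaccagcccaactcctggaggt

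RBPJ binds DNA with the core letters TGGGAA, and the region before the start of each gene was searched for them on both strands in the RefSeq promoter table of GRCm38.p6. The table held 8 of the 10 genes. In the 250 bases before the start, 1 of the 8, Hey2, held the letters, against 21.6% of all 32851 promoters in the table. Hey2 had the letters once in that window, on the strand opposite to the printed one, so they appear below as TTCCCA. It had them 2 times when the first 50 transcribed bases were added, where 25.6% of all promoters held them. The sequences of Hey2, a gene that Notch is known to activate, and of Notch4 are shown with the motif in capitals. Notch4 was the receptor that passed between early and late tumors, a call that ended under some ways of processing. Hey2 is at chr10:30842784-30843033 on the minus strand, and Notch4 at chr17:34564045-34564294 on the plus strand, both on GRCm38.p6. Letters that are absent from this window say nothing about binding elsewhere.
Hey2: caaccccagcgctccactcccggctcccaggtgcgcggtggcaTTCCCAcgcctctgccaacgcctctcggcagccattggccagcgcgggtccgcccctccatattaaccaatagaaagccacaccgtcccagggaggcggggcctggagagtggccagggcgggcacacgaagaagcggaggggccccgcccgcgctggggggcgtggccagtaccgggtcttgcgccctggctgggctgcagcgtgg
Notch4: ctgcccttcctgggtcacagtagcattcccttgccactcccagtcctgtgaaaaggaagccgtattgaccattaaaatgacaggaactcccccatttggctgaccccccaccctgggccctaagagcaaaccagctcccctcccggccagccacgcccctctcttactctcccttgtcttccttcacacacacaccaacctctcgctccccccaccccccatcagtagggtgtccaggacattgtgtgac

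**Figure D1:**
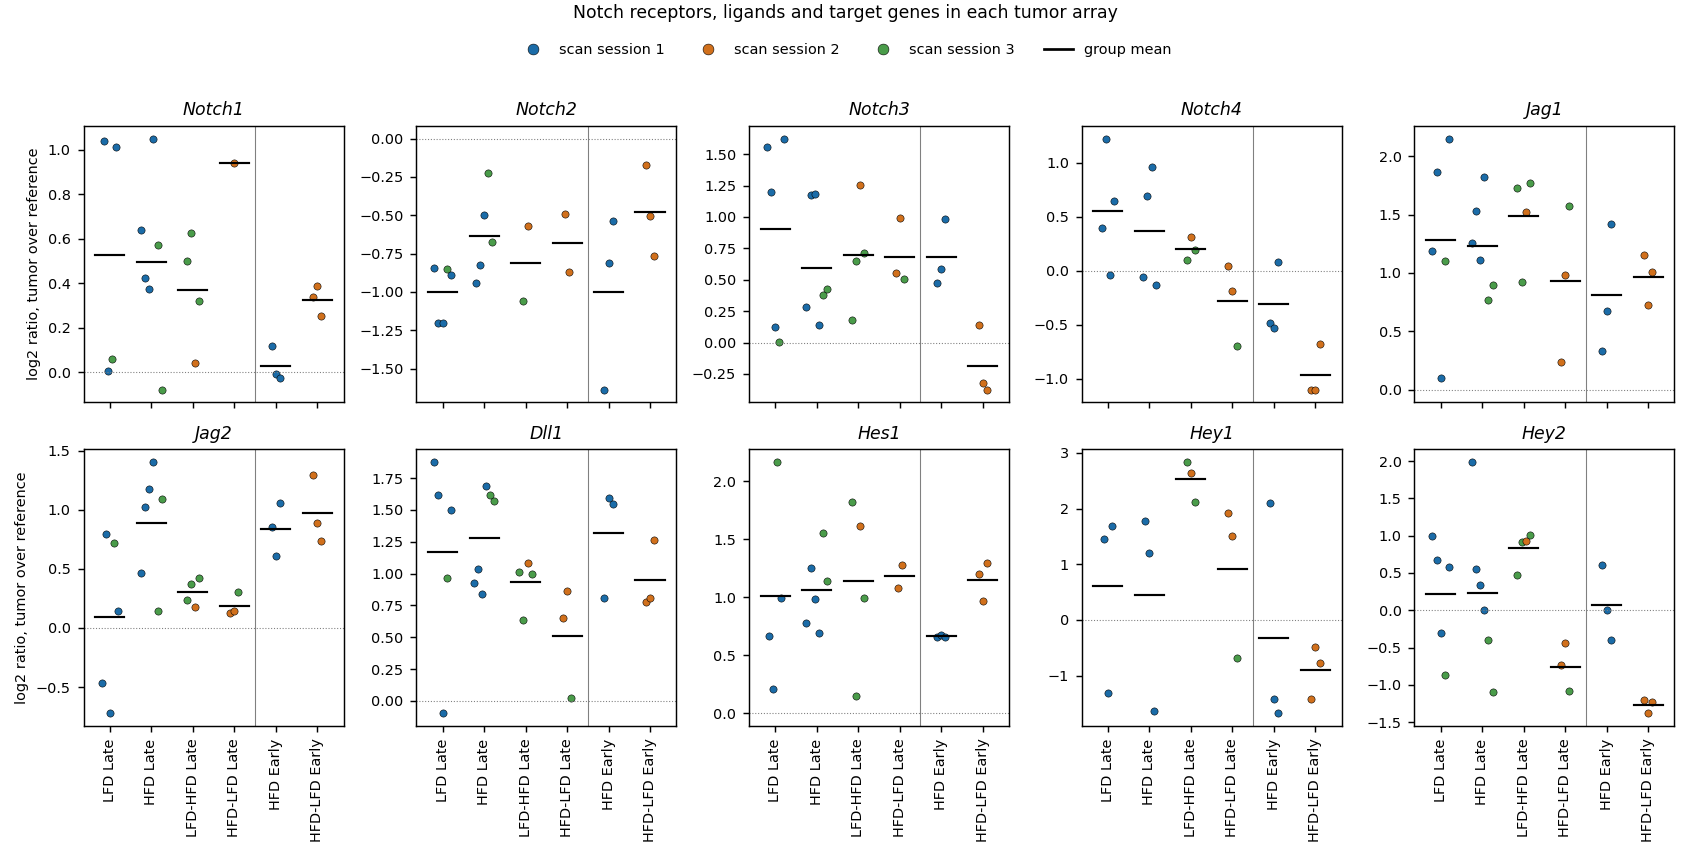
Log2 ratio of tumor over reference (vertical axis) for each of the 10 genes, with 1 point per array, by diet and onset group (horizontal axis); color gives the scan session, the short line the mean of the group, and the vertical line separates late (left) from early (right) groups. Notch4 was below 0 on 5 of 6 early arrays, and Hey1 ranged from -1.68 to 2.84 over 18 arrays.

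The first comparison asked which genes separate tumors by time of onset. Notch4 was lower in early-occurring tumors by 0.88 on the log2 scale (SE 0.23, 6 early and 14 late arrays, a 1.84-fold difference), with an adjusted p of 0.0142 in limma over all genes. It was the only one of the 10 genes past the threshold, beside 16.2% of all 20895 genes tested in this comparison (limma, adjusted p under 0.05), with 9.88% called lower. The 3 HFD Early arrays read -0.48, -0.53 and 0.08, and the 3 HFD-LFD Early arrays -1.10, -1.10 and -0.68. The late arrays ran from -0.70 to 1.22 with a median of 0.15, and all 6 early arrays lay below that median, although the groups overlapped: 6 of the 14 late arrays lay below the highest early array. The probe is at chr17:34725120-34725179 (mm9).

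Within the late arrays, Notch4 was 0.40, 1.22, -0.04 and 0.65 in LFD Late, -0.06, 0.69, 0.96 and -0.13 in HFD Late, and 0.10, 0.32 and 0.19 in LFD-HFD Late. The 3 HFD-LFD Late arrays read 0.04, -0.18 and -0.70, and 2 of them were below every late array of the other diets. By group, the mean of Notch4 went down in the order LFD Late at 0.56 ± 0.53 (SD, n = 4), HFD Late at 0.36 ± 0.54 (SD, n = 4), LFD-HFD Late at 0.20 ± 0.11 (SD, n = 3), HFD-LFD Late at -0.28 ± 0.38 (SD, n = 3), HFD Early at -0.31 ± 0.34 (SD, n = 3) and HFD-LFD Early at -0.96 ± 0.24 (SD, n = 3). Neighbors in this order lay closer than the larger of their SDs, except that LFD-HFD Late stood above HFD-LFD Late and HFD Early above HFD-LFD Early by more. Values of the 4 late arrays of slide 6 were missing because the probe lay in the dimmed rows.

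The Notch4 difference was -0.77 within session 1 and -1.02 within session 2, with an adjusted p of 0.129 and 0.0245, and with slide as a fixed block it was -1.28 with an adjusted p of 0.257, an estimate that rests on the 1 slide that held both early and late arrays. With median centring in place of loess, which moved the median of all genes from -0.05 to 0.22, the difference was -0.37 with an adjusted p of 0.291. With the tumor channel alone it was -0.70 with an adjusted p of 0.0775, with HFD Early alone against all late arrays it was -0.55 with an adjusted p of 0.195, and with the dimmed spots kept the sign turned, at 0.04 with an adjusted p of 0.976.

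**Figure D2:**
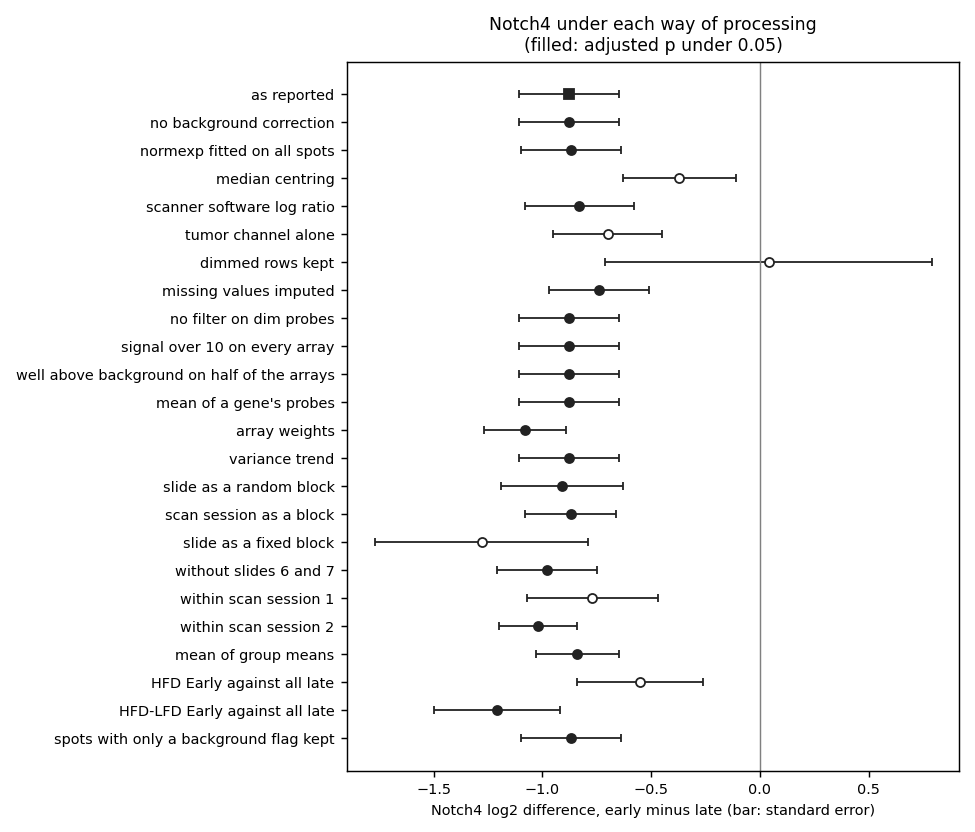
Log2 difference of Notch4, early minus late (horizontal axis), under each alternative processing or subset (vertical axis), with bars of 1 standard error and filled symbols where the adjusted p was under 0.05; the square is the value reported. The settings gave differences between -1.28 and -0.70, except HFD Early alone at -0.55, median centring at -0.37 and the dimmed rows kept at 0.04.

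Notch4 is expressed in endothelium, so the endothelial markers were read beside it. Of 12 endothelial genes, 3 were lower in early tumors (adjusted p under 0.05), beside 9.88% of all genes, and 9 did not pass. In sign 11 of the 12 were lower, beside 56.7% of all genes, with a median difference of -0.42. The mean log2 ratio of the list was -1.55 to -1.08 on early arrays and -1.76 to -0.27 on late arrays. The genes called were Flt1, a receptor for VEGF, at -1.04, Egfl7 at -0.86 and Esam, an adhesion protein of endothelial junctions, at -0.83. Pecam1 differed by -0.10 and Cdh5 by -0.28, and neither passed. In whole tumors, fewer cells of a type and less RNA per cell cannot be told apart, and the part of endothelial content in the Notch4 result was not tested. The genes whose log2 ratios followed Notch4 most closely, by Pearson correlation as a description, were Pip4k2b with 0.94 over 17 arrays, Paqr7 with 0.92 over 18 and Esyt1 with 0.91 over 17.

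The other receptors did not pass. Notch1, widely used in epithelial and blood cell fate, averaged 0.18 ± 0.18 (SD, n = 6) in early tumors, against 0.50 ± 0.39 (SD, n = 15) in late ones, and the difference was -0.32 (SE 0.17, limma adjusted p = 0.177), and all 6 early arrays lay below the late median. Notch3 was 0.25 ± 0.54 (SD, n = 6) against 0.72 ± 0.51 (SD, n = 18), a difference of -0.47 (SE 0.24, limma adjusted p = 0.167). The low early values of Notch3 were all from HFD-LFD Early, at 0.14, -0.32 and -0.38, while HFD Early read 0.47, 0.59 and 0.98. Notch2, the receptor closest in sequence to Notch1, was -0.74 ± 0.50 (SD, n = 6) against -0.80 ± 0.28 (SD, n = 14). By this probe it was below the reference on every array with a value, while the second Notch2 probe was above the reference on 4 of 19 arrays.

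The second probes gave another picture. For Notch1 the second probe was higher in early tumors by 0.26 (SE 0.13, limma adjusted p = 0.154) where the first was lower, and across 21 arrays the 2 probes had a Pearson correlation of -0.35. The second Notch1 probe was well above background in the reference channel on 7 of 24 arrays. For Notch2 the second probe differed by -0.32 (SE 0.15, limma adjusted p = 0.153) where the first differed by 0.06, with a correlation of -0.04 across 15 arrays. The unused Dll1 probe, which failed the filter, had a correlation of -0.05 with the other over 23 arrays. None of these differences passed, so the direction for Notch1 and Notch2 rested on the probe chosen.

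Of the ligands, Jag2 was higher in early tumors in sign. Its 6 early arrays read 0.86, 0.61, 1.06, 1.29, 0.89 and 0.73, all above the late median of 0.34, and the late arrays ran from -0.72 to 1.40. The difference was 0.49 (SE 0.23, limma adjusted p = 0.136). Jag1, whose loss in people causes Alagille syndrome, averaged 0.89 ± 0.39 (SD, n = 6) in early tumors, against 1.25 ± 0.55 (SD, n = 18) in late ones, and the difference was -0.37 (limma adjusted p = 0.289). Dll1, a ligand of the Delta family, was 1.13 ± 0.38 (SD, n = 6) and 1.05 ± 0.54 (SD, n = 18), which differed by less than the spread between arrays. Jag1 was above the reference on all 24 arrays, and Dll1 on all 6 early and 17 of 18 late arrays.

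Of the target genes, Hey1 varied most among arrays. Its SD over 18 arrays was 1.66, at the 98.6th percentile of all genes, and that of Hey2 was 0.90, at the 92.1st percentile, against a median SD of 0.38. Hey1 was above the reference on 9 of 12 late arrays with a value and on 1 of 6 early arrays. The late arrays ran from -1.63 to 2.84, and the early arrays read 2.11, -1.42 and -1.68 in HFD Early and -1.42, -0.49 and -0.77 in HFD-LFD Early. The difference was -1.74 (SE 0.68, limma adjusted p = 0.0862), and without early HFD 1, the array at 2.11, it was -2.28 with an adjusted p of 0.0282. Without late LFD 3 or without late HFD 4, the 2 lowest late arrays, the adjusted p was 0.0395 and 0.0346, so whether Hey1 passed turned on single arrays. Within session 1 the Hey1 difference was -0.86 and within session 2 it was -2.92, with an adjusted p of 0.635 and 0.00877.

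Hey2, whose protein acts beside Hey1 in heart and vessel development, averaged -0.60 ± 0.80 (SD, n = 6) in early tumors, against 0.19 ± 0.86 (SD, n = 18) in late ones, and the difference was -0.80 (SE 0.38, limma adjusted p = 0.148). Its tumor signal was well above background on 16 of 24 arrays and on none of the 3 HFD-LFD Early arrays, so those values of -1.21, -1.38 and -1.23 are bounds rather than levels. The 3 HFD Early arrays of Hey2 read 0.60, 0.01 and -0.40, and these alone differed from the late arrays by -0.12 (limma adjusted p = 0.880). With the scanner software's log ratio the difference of all early arrays was -2.32 (limma adjusted p = 0.0937). Hes1, the repressor most often read as a Notch target, was 0.91 ± 0.29 (SD, n = 6) against 1.09 ± 0.54 (SD, n = 16), and differed by -0.18 (limma adjusted p = 0.611). The 3 HFD Early arrays of Hes1 lay between 0.66 and 0.67, while HFD Late ran from 0.70 to 1.55 over 6 arrays and LFD Late from 0.21 to 2.17 over 4. Within HFD the Hes1 difference was -0.405 (SE 0.351, limma adjusted p = 0.472) and did not pass. How many of all genes separate these HFD groups was not counted.

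**Figure D3:**
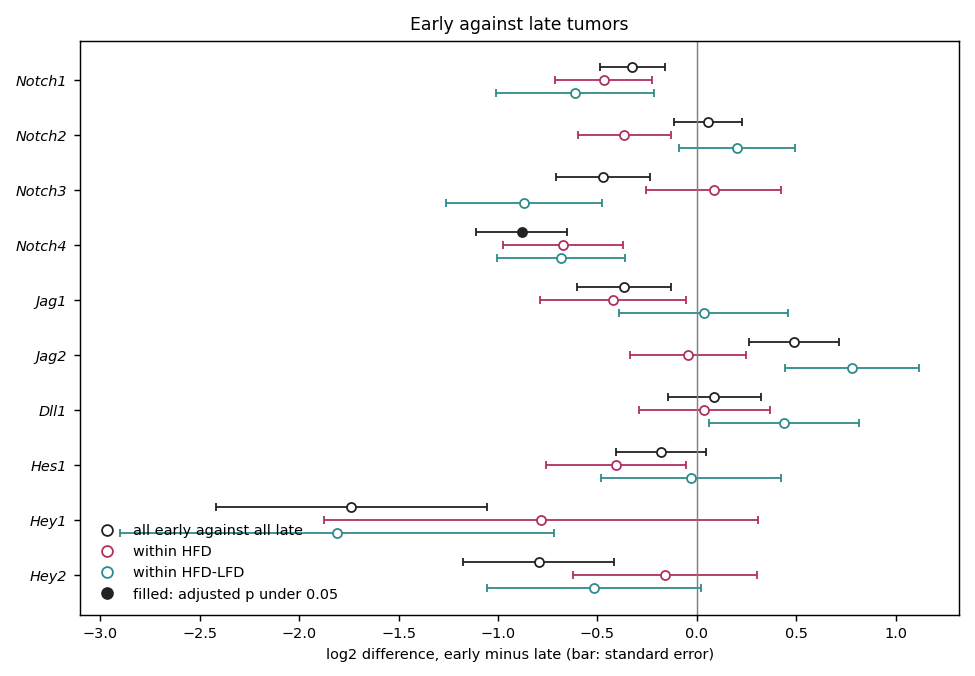
Log2 difference, early minus late, of each of the 10 genes (horizontal axis; bars are 1 standard error) for all arrays, within HFD and within HFD-LFD; filled symbols have an adjusted p under 0.05. Only Notch4 in the comparison of all arrays is filled, at -0.88, and Hey1 has the widest bars.

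Jag2 and Notch3 also differed more within session 2, where the early arrays were all HFD-LFD Early, by 0.82 and -1.12, than within session 1, by 0.37 and -0.23, and the gap between sessions was not tested.

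As a list, 7 of the 10 genes were lower in sign in early tumors, beside 56.7% of all genes, with a median difference of -0.35 where that of all genes was -0.05, and with median centring 6 were lower. Of the 10, 4 had an unadjusted p under 0.05, beside 32.4% of all genes, and the median size of a difference was 0.42 beside 0.24.

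Onset was also compared within each diet that had early tumors. Within HFD no gene of the 10 passed, beside 11.9% of all genes, and within HFD-LFD none passed, beside 0.751%. At an unadjusted p under 0.05 there was 1 of the 10 within HFD, Notch4, beside 29.1% of all genes, and there were 2 within HFD-LFD, Jag2 and Notch3, beside 14.7%. Notch4 was lower in early tumors in both, by 0.67 (SE 0.30, limma adjusted p = 0.150) and by 0.68 (SE 0.32, limma adjusted p = 0.339), and the difference between these changes was 0.01 (SE 0.44, limma adjusted p = 0.998). Within HFD-LFD the values of Jag2, Notch3 and Hey2 did not overlap between 3 early and 3 late arrays, which is 3 of the 7 members with a value on all 6 arrays, beside 29.8% of all genes with such values. The early Hey2 values were not well above background. Jag2 read 1.29, 0.89 and 0.73 in early and 0.12, 0.14 and 0.30 in late tumors (difference 0.78, SE 0.34, limma adjusted p = 0.284). Notch3 was lower by 0.87 (SE 0.39, limma adjusted p = 0.306), with late arrays at 0.55, 0.99 and 0.51. Within HFD, Jag2 differed by -0.04. None of the differences between the 2 diets passed for the 10 genes, beside 0.00964% of all genes, with an adjusted p of 0.663 for Jag2 and Notch3.

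The comparison of diets asked whether continuous HFD and LFD tumors differed. None of the 10 genes passed, nor did any other gene (0% called by limma), while 994 genes, 4.76%, had an unadjusted p under 0.05. Jag2 was the only one of the 10 with an unadjusted p under 0.05. It was -0.47, 0.79, -0.72, 0.72 and 0.14 in LFD Late and from 0.15 to 1.40 in the 9 HFD arrays, a difference of 0.78 (SE 0.27, limma adjusted p = 0.959), and the groups overlapped. Notch4 differed by -0.48 (SE 0.32, limma adjusted p = 0.959), but the HFD arrays include the 3 early ones, and HFD Late against LFD Late it differed by -0.19 (limma adjusted p = 0.979). Leaving out 1 array moved the -0.48 to between -0.68 and -0.26. Among late tumors of the 4 diets none of the 10 passed, beside 1.78% of all genes by the moderated F test, and 2 had an unadjusted p under 0.05, beside 19.6%. Jag2 had an adjusted p of 0.179 and Hey2 of 0.231. Hey2 was 0.47, 0.91, 0.92 and 1.01 in LFD-HFD Late and -0.74, -0.45 and -1.08 in HFD-LFD Late, so these switch groups did not overlap, which 12.1% of all genes with values on these 7 arrays also did not. Of the 5 members with such values Hey2 was the only one. The tumor signal of Hey2 was well above background on 1 of the 3 HFD-LFD Late arrays.

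Of 48 further genes of the pathway, listed by role, 46 were tested in early against late tumors, and 7 passed, 2 higher and 5 lower, beside 16.2% of all genes. The median difference was -0.07 beside -0.05 for all genes. The receptor glycosylation genes held 3 of the 7: Mfng, a fringe enzyme that adds sugars to Notch, was lower by 1.03 (SE 0.23, limma adjusted p = 0.00591), Pofut1, which adds fucose to the receptor, was lower by 0.50 (SE 0.17, adjusted p = 0.0472), and Poglut1, which adds glucose, was higher by 0.57 (SE 0.19, adjusted p = 0.0450). Of 9 tested cleavage genes 2 passed, both parts of gamma-secretase. Aph1b, Pofut1 and Poglut1 were near the threshold, and their calls were lost on leaving out 16, 16 and 11 of the 24 arrays, one at a time. Psen2 was lower by 1.02 (SE 0.22, limma adjusted p = 0.00422) and Aph1b by 0.56 (SE 0.19, limma adjusted p = 0.0451). Dtx3l, a Deltex-family ubiquitin ligase, was lower by 0.87 (SE 0.21, adjusted p = 0.00879), and 9 of 9 inhibitor and turnover genes were lower in sign, beside 56.7% of all genes, but 2 of 9 with median centring, 5 with the tumor channel alone and 6 with the dimmed rows kept. Hes5, a target gene, was higher by 0.91 (SE 0.22, limma adjusted p = 0.00867). In sign 5 of 6 tested genes of the other Hes and Hey family and Nrarp were higher, while 56.7% of all genes were lower. None of 9 nuclear complex genes, 4 other ligands or 4 ligand ubiquitin ligases passed. With median centring 37 of the 46 were higher in sign and with loess 19.

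**Figure D4:**
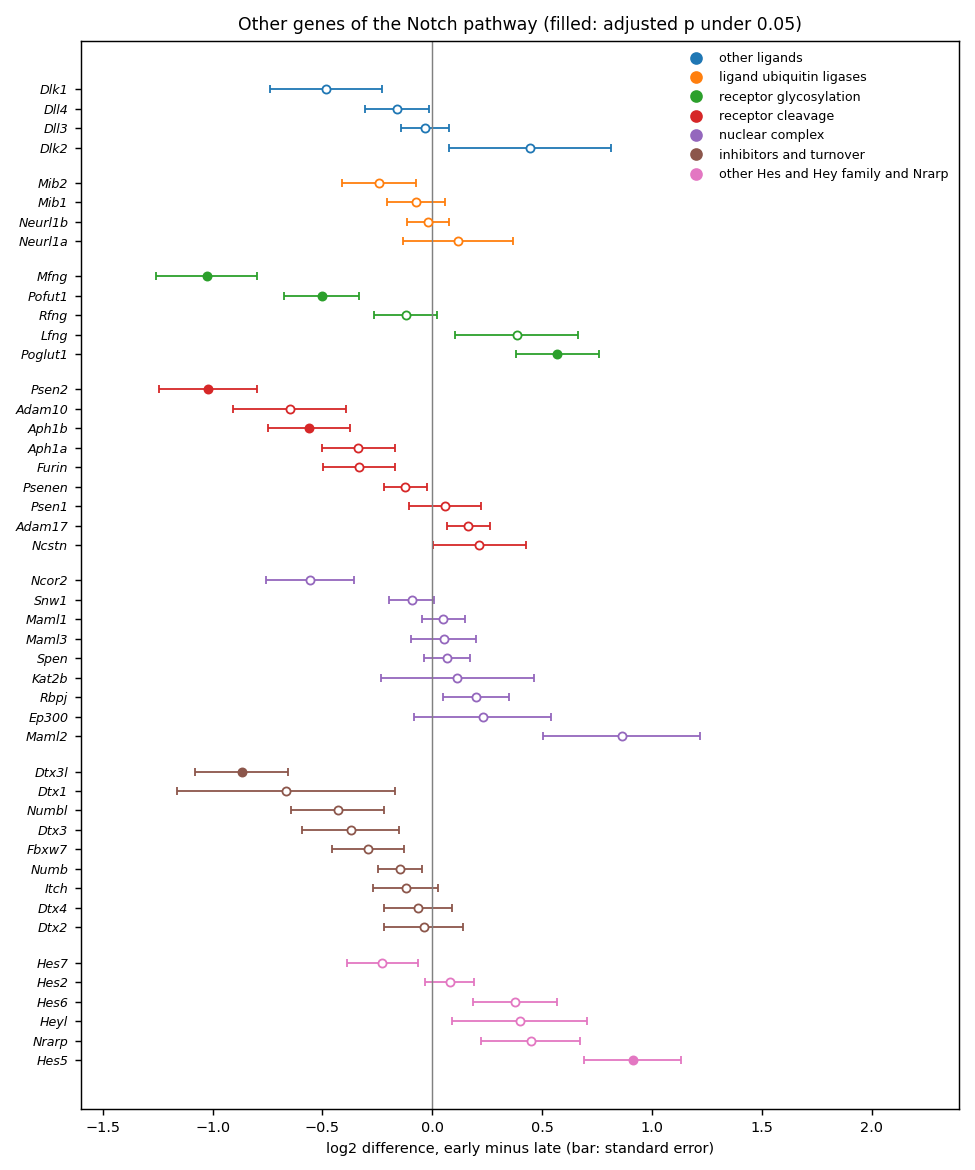
Log2 difference, early minus late (horizontal axis; bars are 1 standard error), of 46 further genes of the pathway, ordered by role and, within a role, by size; filled symbols have an adjusted p under 0.05. The 7 filled genes include Mfng at -1.03 and Psen2 at -1.02, and Hes5 at 0.91 is the largest rise of the filled genes.

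Markers of cell types moved with onset as well, to be read against 9.88% of all genes called lower and 6.37% called higher. Of 11 luminal epithelium genes 4 were lower in early tumors (adjusted p under 0.05), with a median difference of -1.71, and the list mean ran from -0.31 to 2.12 on early and from -1.47 to 3.47 on late arrays. Of 8 proliferation genes 5 were higher, with a list mean of 0.08 to 1.11 on early and -1.32 to 1.08 on late arrays. Of 12 squamous differentiation genes none passed, but 11 were higher in sign, while 56.7% of all genes were lower. Their median difference was 1.18, and the list mean ran from -1.66 to 0.63 on early and -2.93 to 3.28 on late arrays. Of 9 basal epithelium genes 1 was lower. Of 8 mural cell genes 1 was lower. Of 8 fibroblast genes 2 were lower and of 6 adipocyte genes 1 was lower, while none of the macrophage, T cell, B cell or skeletal muscle genes passed. The T cell genes were 6 of 6 lower in sign, beside 56.7% of all genes, with a median difference of -0.92. Their list mean was -1.63 to -0.52 on early and -0.71 to 2.32 on late arrays. Single arrays set 2 of these ends: late HFD-LFD 2 at 2.32, with the next late array at 0.65, and early HFD 1 at -1.63, with the next early array at -0.90. Their part in the differences of Hey1, Jag2 and the receptors was not tested.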

How the data were processed

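RNA of 24 mammary tumors, measured by the study on Agilent 2-color arrays, was used here. The paper states more arrays and more early tumors than were used. The intensity columns deposited by the authors give the mean brightness of each spot and the median of its local background in each dye, with a background-subtracted intensity, and the log10 values are dye-normalized ratios of cyanine 5 over cyanine 3. Feature Extraction was version 8.5.1.1 per the labels and 11.0.1.1 per the file headers. Probe positions are on mm9. No filtering or imputation by the authors is in these files.

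Spots in dimmed rows (bands of 10 rows from an edge, more than 0.5 log2 units below the array) and with an outlier flag were left out, 2.62% to 5.36% of spots being flagged per array. Background was corrected by normexp (offset 50) and ratios by loess (span 0.3) in R 4.3.3 with limma 3.58.1. Probes with a background-subtracted signal above 10 in each channel were kept if this held on 80% of the arrays where they were not dimmed (27292 of 39429) and at least 12 arrays gave a value. Spots of a probe were averaged, the brightest probe stood for a gene, and missing values were not imputed. Of the probes, RefSeq (GRCm38.p6) named 27234 through an accession, 3576 through a symbol and 565 through an outdated symbol, and 8054 kept the file's name.

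Early against late and HFD against LFD were limma fits of group means, and the within-diet and late-diet comparisons came from a fit of 6 group means. P-values were adjusted by Benjamini-Hochberg over all genes and called under 0.05. Named were all 10 genes, the further pathway genes called, and the 3 genes most correlated with a called one. The genes and lists were chosen with earlier results of these data known. In a simulation that changed 200 genes by 2 on the log2 scale, the test recovered 96.5% between onsets, 92.0% between HFD and LFD, 88.0% within HFD, 80.5% within HFD-LFD, 71.5% for the difference between them and 85.0% for late tumors by diet. Of its calls, from 2.3% for late tumors by diet to 8% within HFD-LFD were false. Values were drawn independently for each gene and array, with no slide effect. The Notch4 difference was 0.88, so these shares do not tell how often a difference of that size is found. The number of arrays limits the precision, and the tumor channel was well above background in 66.8% to 89.2% of an array's probe spots. The alternatives tried are in the closing section.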

Additional observations from a re-analysis of the deposited data

Results flagged for a closer look

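Hey1 in the 6 early arrays held a single value far from the others. Early HFD 1 read 2.11, while the other 5 ran from -1.68 to -0.49, and the gap to the nearest was 0.687 of the whole range. The same array had a luminal epithelium list mean of 2.12, against -0.31 to 0.28 on the other 5 early arrays, and a squamous differentiation list mean of -1.66, against -0.44 to 0.63, and the part of either in its Hey1 value was not tested. It was 1 lone value among 45 groups checked, and at the 95% critical value used chance alone gives about 1 such value in 20 groups.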

How the results depend on the processing

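No paired analysis was possible because the replicate numbers were given in the order of the samples and no label pairs tumors across groups. Out of the 10 genes, the number called for early against late was 1, and became 2 with median centring (Jag2 and Notch1) or with imputed missing values (Hey1 and Notch4), 5 with array weights, 4 at an unadjusted p, 4 within session 2, and 0 with the dimmed rows kept, with slide as a fixed block, within session 1 or with HFD Early against all late. With the tumor channel alone the 1 gene called was Notch1 (-1.43, adjusted p = 0.0108) in place of Notch4. Leaving out each array in turn gave 1 to 2. The counts of 0 in the other comparisons became 1 for HFD against LFD at an unadjusted p, 2 with array weights and 1 at an unadjusted p within HFD, 2 at an unadjusted p within HFD-LFD, and for late tumors by diet 2 with array weights, 1 with session as a block and 2 at an unadjusted p. They remained 0 when any array was left out. Array weights called 7930 of all 20883 genes within HFD and 5303 of 20793 for late tumors by diet, where session as a block called 579. At an unadjusted p the shares of all genes were 4.76%, 29.1%, 14.7% and 19.6%, in the order of comparisons above. Early against late, 4004 of all 20897 genes were called with imputed values and 3303 of 20883 with HFD Early alone. The difference of Notch4 ran from -1.02 to -0.79 when each array was left out, with an adjusted p from 0.00594 to 0.0400.

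Some signs turned. Early against late, Hes1 became 0.04 with normexp on all spots, 0.14 with the scanner log ratio, 0.07 for HFD-LFD Early alone and 0.03 with background-flagged spots kept, a setting chosen after seeing the data. Notch2 became 0.00 with normexp on all spots, -0.01 imputed, -0.19 as the mean of its probes, -0.08 within session 1, -0.20 for HFD Early alone and -0.08 with background-flagged spots kept, and it ran from -0.06 to 0.24 leaving out arrays. Jag1 became 0.01 with median centring and 0.05 within session 2, Dll1 -0.14 with slide as a fixed block and -0.09 for HFD-LFD Early alone (0.00 to 0.16 leaving out arrays), Notch1 0.28 with slide as a fixed block, and Notch4 0.04 with the dimmed rows kept. Within HFD, Notch4 became 0.07 with median centring and 0.79 with the dimmed rows kept. Its difference between the diets, 0.01, became 0.00 without background correction, -0.03 with normexp on all spots, -0.11 with the scanner log ratio, -0.03 in the tumor channel, -0.26 with array weights and -0.03 with background-flagged spots kept, and ran from -0.19 to 0.22 leaving out arrays. Dimmed rows held 4 late arrays of Notch4 at a strongly reduced cyanine 5 signal, and the cause of the other changes was not tested. Of all genes, 3394 were called, 39.2% of them higher, against 4989 and 83.4% with median centring, 2330 and 61.2% in the tumor channel, 888 and 53.7% for HFD-LFD Early alone, 122 and 28.7% with slide as a fixed block, 6213 with array weights, 5081 with session as a block, 1514 with slide as a random block, 1315 within session 1, 2217 within session 2 and 2132 with the dimmed rows kept. Of the 7 further pathway genes, Psen2 lost its call under 3 of 23 alternatives, Mfng and Hes5 under 5, Dtx3l under 6, Poglut1 under 10, Aph1b under 13 and Pofut1 under 15, with no change of sign.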
